A study of Mus musculus with 9 samples.

Results

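The enzymes that activate and inactivate the nucleoside drug gemcitabine, together with the subunits of the enzyme it blocks, were followed across 9 mouse pancreas tumours. The group comprised 10 genes, Dck, Cmpk1, Nme1, Nme2, Cda, Dctd, Nt5c2, Rrm1, Rrm2 and Rrm2b, taken by gene symbol from the annotation of the array. They were represented by 20 of the 45281 probes on the array and were 10 of its 19057 genes with a probe. Of the 20 probes, 16 were detected on at least 3 of the 9 arrays, and all 10 genes had at least 1 such probe. The tumours fell into 3 genotypes of 3 tumours each. The first was labelled KPC and had wild-type Twist and Snail. The second was labelled KPC;TwistcKO and lacked Twist in the pancreas. The third was labelled KPC;SnailcKO and lacked Snail in the pancreas. They are called KPC, Twist cKO and Snail cKO below. KPC is the field's usual name for a genetically engineered mouse model of pancreatic cancer, a background that all 3 groups shared. The labels give neither the Cre driver, the deleted exons nor the age of the mice, and they describe tumours that arose spontaneously, with no drug treatment named. The design text counts 2 mice per group whereas 3 samples per group were labelled as separate mice, and all 9 were used.

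Gemcitabine is a deoxycytidine analogue and a standard drug for pancreatic cancer. Inside the cell, deoxycytidine kinase (Dck) adds the first phosphate, which is the limiting step, UMP-CMP kinase (Cmpk1) adds the next, and nucleoside diphosphate kinases such as Nme1 and Nme2 complete the triphosphate that is built into DNA. Cytidine deaminase (Cda) inactivates the drug itself, dCMP deaminase (Dctd) inactivates its monophosphate, and the cytosolic nucleotidase Nt5c2 removes the phosphate again. The diphosphate blocks ribonucleotide reductase, which makes deoxynucleotides from a large subunit (Rrm1) and a small subunit, either Rrm2, used in dividing cells, or Rrm2b, induced by p53. Twist and Snail are transcription factors of the epithelial-mesenchymal transition that bind E-boxes, whose letters are CANNTG.

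Among the 10 genes, 3 had an unadjusted limma p under 0.05 in any comparison below, Nme1, Dctd and Cda. Their promoters are shown because the deleted factors bind this motif. The windows run from 250 bases before to 50 bases after the gene start, come from RefSeq on build GRCm38.p6, and carry E-boxes in capitals. The Nme1 window is chr11:93968223-93968522 on the minus strand, the Dctd window chr8:48109708-48110007 on the plus strand, and the Cda window chr4:138367906-138368205 on the minus strand.
Nme1: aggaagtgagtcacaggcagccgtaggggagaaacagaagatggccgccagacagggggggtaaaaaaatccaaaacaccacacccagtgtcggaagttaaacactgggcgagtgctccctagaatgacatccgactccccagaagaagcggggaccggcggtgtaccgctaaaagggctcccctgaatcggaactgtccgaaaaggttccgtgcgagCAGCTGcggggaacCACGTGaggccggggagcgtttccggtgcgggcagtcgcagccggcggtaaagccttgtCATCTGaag
Dctd: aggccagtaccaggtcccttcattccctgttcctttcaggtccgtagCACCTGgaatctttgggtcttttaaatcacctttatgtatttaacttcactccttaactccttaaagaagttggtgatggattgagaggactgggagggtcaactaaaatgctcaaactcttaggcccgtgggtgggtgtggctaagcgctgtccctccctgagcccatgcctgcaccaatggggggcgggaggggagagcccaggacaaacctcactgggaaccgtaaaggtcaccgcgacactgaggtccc
Cda: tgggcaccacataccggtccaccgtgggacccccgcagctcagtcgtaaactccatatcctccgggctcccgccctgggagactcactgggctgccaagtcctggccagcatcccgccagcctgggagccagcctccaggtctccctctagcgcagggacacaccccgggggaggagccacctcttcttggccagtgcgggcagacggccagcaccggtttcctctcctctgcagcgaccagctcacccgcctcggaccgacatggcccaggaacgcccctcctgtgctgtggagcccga
The Nme1 window held 3 E-boxes, CAGCTG starting at position -32, CACGTG at -18 and CATCTG at 42 relative to the gene start. The Dctd window held 1, CACCTG at -203, and the Cda window held none. A window was listed for 9 of the 10 genes, and 6 of these 9 held CANNTG on either strand, against 72.1% of all 27025 windows of this length. The narrower form CAGGTG, or CACCTG on the other strand, is a subset of CANNTG and was found in 1 of 9 windows, that of Dctd, against 20% of all windows. CCAAT was found in 3 of 9, those of Dctd, Rrm1 and Rrm2, against 37.9%. The E2F letters TTTGGCGC and TTTCCCGC were found in 0 of 9, against 0.537% and 1.11%, and TTTGAA was found in 1 of 9, that of Dck, against 18.1%. Where a gene had several listed windows, the first was used. A match of letters describes the window and no binding was measured.

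All levels below are log2 normalized intensities, on which a difference of 1 is a doubling, and levels of different probes were not compared with each other. A probe was called detected on an array at a detection p-value under 0.05. Each array detected between 16707 and 19606 probes. Snail cKO replicate 2 detected the fewest, 36.9% of the probes, against at least 41.66% on every other array. The raw intensities fell into 2 sets of arrays with separate background levels. Set 1 held all KPC tumours and replicate 3 of each cKO group, and set 2 held replicates 1 and 2 of both cKO groups. Set and genotype are therefore partly confounded in comparisons with KPC, but not between the cKO groups. The Twist1 level separated Twist cKO (4.83 ± 0.35, SD, n = 3, detected in 1) from KPC (7.97 ± 1.06, detected in 3). It did not separate Twist cKO from Snail cKO (6.96 ± 2.07, detected in 2). The lowest Snail cKO tumour, at 4.65, lay within the Twist cKO range of 4.6 to 5.23. Snai1 was detected in all 9 tumours and did not separate Snail cKO (7.06 ± 0.88) from KPC (7.42 ± 0.51). It is not known whether either probe lies in a deleted exon. Epithelial markers stood low in a pair of tumours. The median of the tested duct and epithelial markers, relative to each marker's mean over the 9 tumours, was -2.78 in KPC replicate 1 and -5.58 in Twist cKO replicate 2, and at least -0.03 in the other 7. Twist cKO replicate 2 had no detected Krt19 or Krt7 and held high levels of the lymphocyte genes Cd79b (12.86) and Cd3d (12.66) and of the adipocyte gene Adipoq (12.96). These 2 tumours are called low in epithelial markers below, and the main results are also given without them. In bulk tumour RNA, fewer cells of a type and less RNA per cell cannot be told apart.

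**Figure D1:**
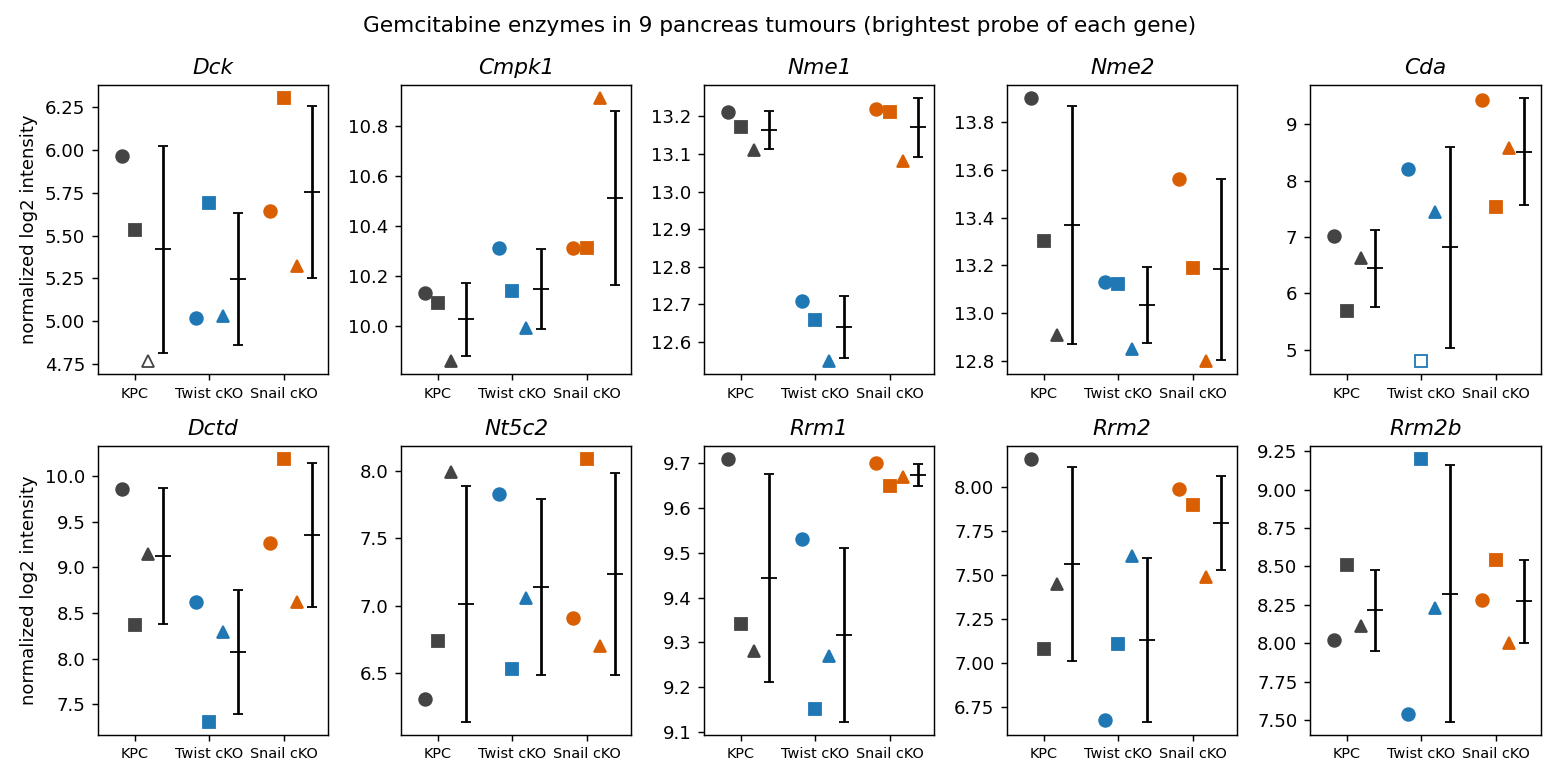
Levels of the 10 genes in each tumour, on the vertical axis as log2 normalized intensity of the brightest detected probe, with the 3 genotypes on the horizontal axis. Circles, squares and triangles are replicates 1, 2 and 3, open symbols were not detected, and bars are mean ± SD (n = 3). The Nme1 panel shows all Twist cKO tumours, at 12.55 to 12.71, below the other 6, and the Cda panel spans the widest range.

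Among the activating kinases, Nme1 had tight levels within each genotype and a lower level in Twist cKO. It read 13.21, 13.17 and 13.11 in KPC replicates 1, 2 and 3, then 12.71, 12.66 and 12.55 in Twist cKO, and 13.22, 13.21 and 13.08 in Snail cKO. Every Twist cKO tumour was thus below all 6 others, while KPC and Snail cKO overlapped. The Twist cKO mean was lower than the KPC mean by a log2 difference of -0.52 (SE 0.21, 95% CI -1.0 to -0.04), or 0.697-fold, with an unadjusted limma p of 0.0364. Snail cKO exceeded Twist cKO by 0.53 (SE 0.21, unadjusted limma p = 0.0341, exact permutation p = 0.1), and Snail cKO and KPC differed by 0.01 (SE 0.21). Adjusted over all genes, the limma p was 0.978 for Twist cKO against KPC and 0.986 for Snail cKO against Twist cKO, so neither difference was called. By p, Nme1 ranked 281 of 11537 genes in the first of these comparisons. The exact two-sided permutation p was 0.1 for both, the smallest that 3 tumours against 3 allow. The pooled SD within groups was 0.07 for Nme1, below the prior SD of 0.457 toward which limma drew it. With a prior that follows intensity, an alternative chosen after seeing the data, the unadjusted limma p was 0.00696 for Twist cKO against KPC, and the adjusted p stayed at 0.974.

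The Nme1 difference depended on the normalization between arrays. The groups stayed apart with quantile or cyclic loess normalization, without background correction, and in the authors' processed table after quantile normalization. In the authors' processed table with no further normalization they overlapped, and the Twist cKO difference from KPC was -0.16. The median difference of all genes in that comparison was 0.22 there against -0.07 after normalization, and relative to this median Nme1 stood at -0.39 there and at -0.45 after normalization. The difference was -0.61 with a block for array set and also -0.61 in set 1 alone. Set 1 holds 1 Twist cKO tumour, replicate 3, the lowest of all tumours in Nme1 (12.55). Without the 2 tumours low in epithelial markers it was -0.51.

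**Figure D2:**
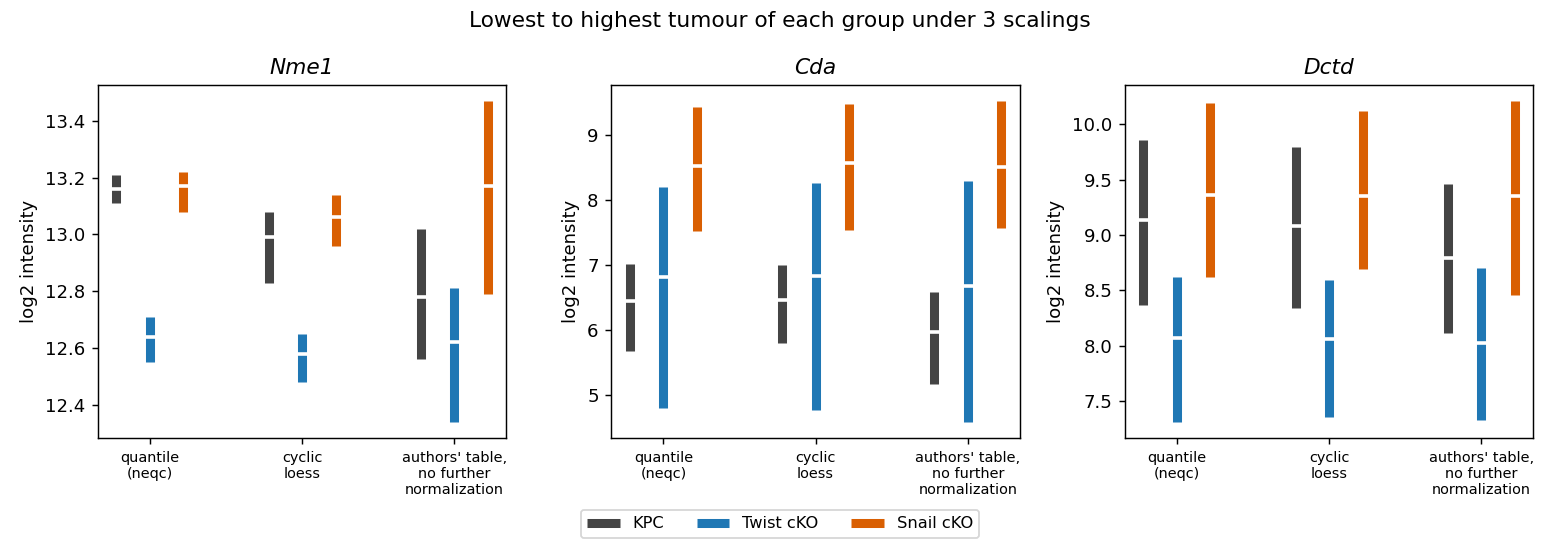
Lowest to highest tumour of each genotype for 3 genes under 3 scalings, with the log2 intensity on the vertical axis. Bars run from the lowest to the highest of the 3 tumours and white lines are means. The Twist cKO range of Nme1 lies below the others with quantile or cyclic loess normalization and overlaps them in the authors' table with no further normalization, where the Dctd ranges of Snail cKO and Twist cKO also overlap.

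Nme2, the neighbouring and closely related kinase gene, did not show this separation. Its brightest probe read 13.90, 13.30 and 12.91 in KPC, 13.13, 13.12 and 12.85 in Twist cKO, and 13.56, 13.19 and 12.80 in Snail cKO. The 3 genotypes overlapped, and replicate 3 was the lowest tumour of each. Twist cKO differed from KPC by -0.34 (SE 0.33), while another probe gave -0.07 and the dimmest, detected on 6 of 9 arrays, gave 0.03. Nme1 and Nme2 are similar in sequence, and whether their probes cross-hybridise was not tested.

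Dck, the entry enzyme of the activating route, lay near the background of the arrays. It read 5.96, 5.53 and 4.77 in KPC, 5.02, 5.69 and 5.03 in Twist cKO, and 5.64, 6.30 and 5.32 in Snail cKO, and KPC replicate 3 was not detected (detection p-value 0.126). All 3 groups overlapped. The mean difference was -0.17 for Twist cKO and 0.34 for Snail cKO against KPC (SE 0.40 each), with a 95% interval of -1.08 to 0.74 for the former.

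Cmpk1 was higher in every Snail cKO tumour than in every KPC tumour. It read 10.13, 10.09 and 9.86 in KPC, 10.31, 10.14 and 9.99 in Twist cKO, and 10.31, 10.31 and 10.91 in Snail cKO. The lowest Snail cKO tumour lay close to the highest KPC tumour and level with the highest Twist cKO tumour. Snail cKO exceeded KPC by 0.48 (SE 0.26, unadjusted limma p = 0.099, exact permutation p = 0.1). Without Snail cKO replicate 3 the difference was 0.28.

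Among the inactivating enzymes, Cda had the widest spread of the 10 genes and its highest levels in Snail cKO. It read 7.02, 5.68 and 6.63 in KPC, 8.21, 4.80 and 7.44 in Twist cKO, and 9.43, 7.53 and 8.58 in Snail cKO. All 3 Snail cKO tumours were above all 3 KPC tumours. Twist cKO overlapped both groups. Its replicate 2, the tumour without detected Krt19, was the lowest of the 9 and not detected for Cda (detection p-value 0.118). Cda was 4.2-fold higher on average in Snail cKO than in KPC, a log2 difference of 2.07 (SE 0.87, 95% CI 0.09 to 4.05, unadjusted limma p = 0.0424, exact permutation p = 0.1). Adjusted over all genes the limma p was 0.9999. The Cda difference from KPC was 2.42 with the array set as a block, 2.14 in set 1 alone, and 2.36 without the 2 tumours low in epithelial markers. It was 1.38 with no background correction and 1.61 without Snail cKO replicate 1.

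The Cda difference between the cKO groups moved with 1 tumour. Snail cKO exceeded Twist cKO by 1.70 (SE 0.87, unadjusted limma p = 0.083, exact permutation p = 0.2) with all tumours and by 0.69 without Twist cKO replicate 2. Twist cKO exceeded KPC by 0.37 (SE 0.87), and this ranged from -0.33 without Twist cKO replicate 1 to 1.38 without Twist cKO replicate 2, and was 1.67 without the 2 tumours low in epithelial markers. The range of Cda over the 9 tumours was 4.63, and its SD over the tumours was at or above that of 93.8% of the genes tested.

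Dctd had its lowest mean in Twist cKO. It read 9.86, 8.37 and 9.15 in KPC, 8.62, 7.31 and 8.29 in Twist cKO, and 9.27, 10.19 and 8.62 in Snail cKO. The lowest Snail cKO tumour and the highest Twist cKO tumour were equal to 2 decimals, so the groups touched with no overlap, while KPC overlapped both. Snail cKO exceeded Twist cKO by 1.29 (SE 0.55, unadjusted limma p = 0.0435, adjusted 0.986, exact permutation p = 0.1). Without Snail cKO replicate 2, the array with the fewest detected probes, this difference was 0.88. Set 1 alone gave 0.33 for it, from 1 tumour in each cKO group. In the authors' table with no further normalization these groups overlapped in Dctd. Twist cKO was below KPC by a difference of -1.06 (SE 0.55, 95% CI -2.30 to 0.19, unadjusted limma p = 0.086, exact permutation p = 0.2), which was -0.67 without Twist cKO replicate 2 and -0.31 without the 2 tumours low in epithelial markers.

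Nt5c2 showed tumour-to-tumour variation with no order by genotype. It read 6.31, 6.74 and 7.99 in KPC, 7.83, 6.53 and 7.06 in Twist cKO, and 6.91, 8.09 and 6.70 in Snail cKO. The high tumours, above 7.8, came 1 from each genotype. The group means of 7.02 ± 0.87, 7.14 ± 0.65 and 7.23 ± 0.75 (SD, n = 3 each) differed by less than the spread within any group. The 2 further detected probes of Nt5c2 gave -0.07 and 0.45 for Twist cKO against KPC, where the brightest gave 0.12.

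Among the subunits of ribonucleotide reductase, Rrm1 was the most even in Snail cKO. It read 9.71, 9.34 and 9.28 in KPC, 9.53, 9.15 and 9.27 in Twist cKO, and 9.70, 9.65 and 9.67 in Snail cKO. The Snail cKO tumours, with an SD of 0.03, all lay above the Twist cKO tumours and within the range of KPC. Snail cKO exceeded Twist cKO by 0.36 (SE 0.24, exact permutation p = 0.1). A second Rrm1 probe gave the opposite sign, -0.37 (SE 0.31), with 8.87, 8.26 and 8.25 in KPC, 9.01, 8.87 and 8.75 in Twist cKO, and 9.02, 8.12 and 8.37 in Snail cKO. The direction of Rrm1 between the cKO groups therefore depended on the probe, the groups overlapped in the authors' table with no further normalization, and 1 further probe was detected on no array.

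Rrm2, the small subunit of dividing cells, read 8.16, 7.08 and 7.45 in KPC, 6.68, 7.11 and 7.61 in Twist cKO, and 7.99, 7.90 and 7.49 in Snail cKO. The groups overlapped in all 3 comparisons. The Snail cKO mean exceeded the Twist cKO mean by 0.66 (SE 0.37, unadjusted limma p = 0.106, exact permutation p = 0.2), and a second probe gave 0.63 (SE 0.47). In set 1 alone the sign turned, to -0.13. Rrm2b, the p53-induced small subunit, read 8.02, 8.51 and 8.11 in KPC, 7.54, 9.20 and 8.23 in Twist cKO, and 8.28, 8.54 and 8.00 in Snail cKO. Its group means lay within 0.11 of each other, and its highest tumour was Twist cKO replicate 2.

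**Figure D3:**
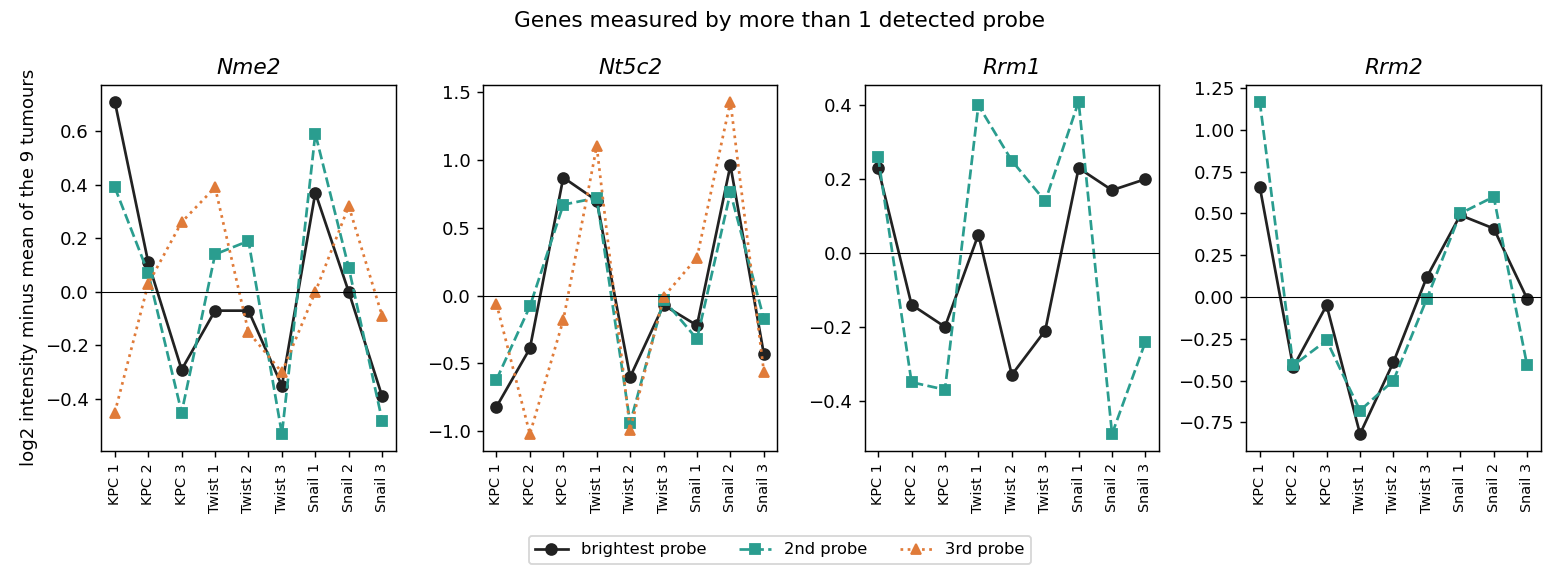
The 4 genes with more than 1 detected probe, with each probe's log2 intensity minus its mean over the 9 tumours on the vertical axis and the tumours on the horizontal axis. Lines join values of the same probe for legibility. The pair of Rrm2 probes parts most in KPC replicate 1 (0.66 and 1.17) and Snail cKO replicate 3 (-0.01 and -0.41). The Rrm1 probes part in the Twist cKO tumours and in Snail cKO replicates 2 and 3.

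Counted over the 10 genes, no gene passed the adjusted threshold of 0.05 in limma in any comparison, and the share called over all 11537 genes was 0% in each. In Twist cKO against KPC, 4 of 10 means were higher, against 43.7% of all genes, and 6 were lower, against 56.3%, with a median difference of -0.15 against -0.07 for all genes. Nme1 lay below KPC without overlap, as did 5.07% of all genes, and 0 of 10 lay above it, against 2.99%. In this comparison 1 of 10 genes had an unadjusted p under 0.05, against 3.55% of all genes. In Snail cKO against KPC, 9 of 10 means were higher, against 46% of all genes, and 1 was lower, against 54%, with a median of 0.23 against -0.04. Cmpk1 and Cda lay above KPC without overlap, as did 2.84% of all genes, and 0 of 10 lay below it, against 5.84%. In this comparison 1 of 10 genes, Cda, had an unadjusted p under 0.05, against 2.7%. In Snail cKO against Twist cKO, 9 of 10 means were higher, against 52.2% of all genes, and 1 was lower, against 47.8%, with a median of 0.44 against 0.02. Nme1, Dctd and Rrm1 lay above Twist cKO without overlap, as did 4.25% of all genes, and 0 of 10 lay below it, against 3.97%. Of the 10, 2 genes, Nme1 and Dctd, had an unadjusted p under 0.05, against 3.78%. The comparisons share samples pairwise, so their counts are not independent.

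The count of 9 higher means in Snail cKO against KPC was not stable. It became 5 of 10 (median -0.01) with the array set as a block, 3 of 10 (median -0.09) in set 1 alone, and 5 of 10 (median 0.03) without Snail cKO replicate 2. The count of 9 higher means in Snail cKO against Twist cKO remained 9 of 10 with the block and was 6 of 10 in set 1 alone, where each cKO group has 1 tumour. The 4 of 10 higher means in Twist cKO against KPC became 2 of 10 with the block and 7 of 10 in the authors' table without further normalization.

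**Figure D4:**
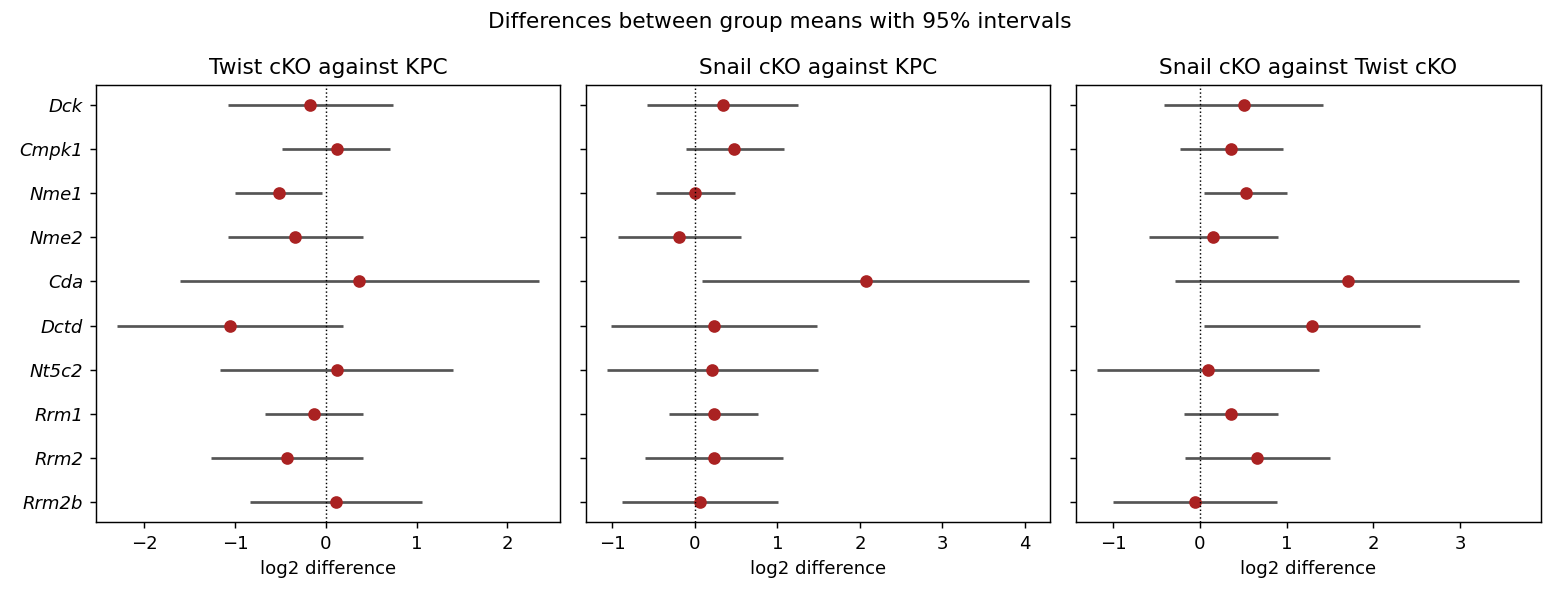
Differences in log2 level for the 10 genes in the 3 comparisons, with points as limma estimates and bars as 95% confidence intervals. Most intervals cross 0, and those of Cda in Snail cKO against KPC, of Nme1 in Twist cKO against KPC, and of Nme1 and Dctd in Snail cKO against Twist cKO do not. None passed adjustment over all genes.

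Among the other listed genes of nucleotide metabolism, Upp1 had the smallest p between the cKO groups. Upp1 encodes uridine phosphorylase, which splits uridine into base and sugar phosphate. It read 10.29, 10.69 and 9.76 in KPC, 9.01, 8.43 and 9.67 in Twist cKO, and 12.17, 10.99 and 10.86 in Snail cKO. No pair of genotypes overlapped, with Twist cKO lowest and Snail cKO highest, and 2 further probes of Upp1 gave the same order of means. On 1 of these, Snail cKO replicate 3 (8.73) lay below KPC replicate 2 (8.89), so that Snail cKO and KPC overlapped. In the authors' table with no further normalization, Twist cKO and KPC overlapped. Snail cKO was 4.94-fold above Twist cKO, a log2 difference of 2.30 (SE 0.47, unadjusted limma p = 0.000909, adjusted 0.986, exact permutation p = 0.1), which ranked 8 of 11537 genes. Twist cKO differed from KPC by -1.21 (SE 0.47, unadjusted limma p = 0.0296) and Snail cKO from KPC by 1.09 (SE 0.47, unadjusted limma p = 0.0447), with an exact permutation p of 0.1 for each. The Snail cKO difference from Twist cKO was 1.19 in set 1 alone and 2.00 without the 2 tumours low in epithelial markers. The Snail cKO difference from KPC in Upp1 was 0.68 without Snail cKO replicate 1 and 0.61 in set 1 alone, and the Twist cKO difference from KPC was -0.58 in set 1 alone.

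The remaining lists gave no called gene in any comparison by limma. Of 8 further salvage kinases tested, 5 had a higher mean in Twist cKO than in KPC, 6 in Snail cKO than in KPC and 5 in Snail cKO than in Twist cKO, and the next counts follow this order. Of 4 further nucleoside diphosphate kinases, 3 had higher means in each, and the exception in Twist cKO against KPC was the mitochondrial Nme4, at -0.88 (SE 0.46). The Nme4 difference was -0.40 without KPC replicate 1, its highest tumour at 9.00, and -0.37 without the 2 tumours low in epithelial markers. A further kept probe of Nme4 read 7.37, 6.36 and 6.29 in KPC and 6.34, 6.16 and 6.12 in Twist cKO. Yet another read 8.25, 6.06 and 6.78 in KPC and 7.00, 6.36 and 6.63 in Twist cKO. KPC and Twist cKO overlapped on both. Of 8 other nucleotidases and hydrolases, 2, 1 and 3 had higher means. Of 7 genes of pyrimidine and thymidylate synthesis, 1, 4 and 6 had higher means, with medians of -0.39, 0.12 and 0.43. Of the 4 nucleoside phosphorylases and deaminases, Upp1 among them, 1, 3 and 4 had higher means.

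Proliferation genes are given beside Rrm1 and Rrm2 because these are made in dividing cells. Of 18 tested, 1 had a higher mean in Twist cKO than in KPC (median -0.27), 11 in Snail cKO than in KPC (median 0.16) and 17 in Snail cKO than in Twist cKO (median 0.33). The list median, relative to each gene's mean over the 9 tumours, was 0.73, -0.28 and -0.14 in KPC replicates 1, 2 and 3. It was -0.51, -0.20 and -0.11 in Twist cKO, and 0.32, 0.30 and -0.04 in Snail cKO. KPC replicate 1, a tumour low in epithelial markers, thus stood highest. Among the 18 genes, Cdc20, an activator of mitotic exit, differed by 1.23 (SE 0.56), and Aurkb, a mitotic kinase, by 1.00 (SE 0.49) between Snail cKO and Twist cKO. In set 1 alone, with 1 tumour in each cKO group, these were 0.26 for Cdc20 and 0.26 for Aurkb. The cKO groups overlapped on every further kept probe of Cdc20. Of these, 1 read 8.28, 7.59 and 8.63 in Twist cKO and 9.38, 9.51 and 8.43 in Snail cKO. The thymidine kinase Tk1 differed by 0.58 (SE 0.38) between Snail cKO and Twist cKO, and by 0.14 in set 1 alone. The cKO groups overlapped on another kept probe of Tk1. Mcm6, a helicase subunit, differed by -0.49 (SE 0.26) between Twist cKO and KPC, by -0.31 without KPC replicate 1 and by -0.29 without the 2 tumours low in epithelial markers. Another kept probe of Mcm6 read 9.90, 8.82 and 9.91 in KPC, was not detected in any Twist cKO tumour (4.42 to 4.62), and read 4.42, not detected, then 8.87 and 8.81 in Snail cKO. The probes of Mcm6 thus disagreed in size. Of 10 p53 targets, listed beside Rrm2b, 7 had higher means in Twist cKO than in KPC (median 0.29) and 2 in Snail cKO than in Twist cKO (median -0.18). Among them was Trp53inp1, a stress-induced regulator of autophagy, at 1.53 (SE 0.61, unadjusted limma p = 0.0355, exact permutation p = 0.3) in the former and -1.50 in the latter. Its difference between Twist cKO and KPC was 0.94 without KPC replicate 1, 0.65 without the 2 tumours low in epithelial markers, 0.86 with a block for array set and 0.37 in set 1 alone. Between Snail cKO and Twist cKO, Trp53inp1 differed by -0.51 in set 1 alone. Of the 10 targets, 3 had a lower mean in Twist cKO than in KPC. They included Cdkn1a, at -1.44 (SE 0.75), and Zmat3, at -0.43 (SE 0.27).

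Means of cell type markers differed in the same comparisons. Of 8 duct and epithelial markers tested, 0 had a higher mean in Twist cKO than in KPC and 7 had a higher mean in Snail cKO than in Twist cKO (median 2.03). Their summed level, as lowest, median and highest tumour, was 12.53, 15.55 and 15.68 in KPC, 8.20, 15.39 and 15.63 in Twist cKO, and 14.61, 15.39 and 15.66 in Snail cKO. Of 8 macrophage markers, 0 had a higher mean in Snail cKO than in KPC (median -0.998), with summed levels of 12.88, 14.11 and 15.65 in KPC, 13.65, 13.65 and 14.65 in Twist cKO, and 12.65, 13.19 and 13.73 in Snail cKO. Of 8 fibroblast markers, 0 had a higher mean in Snail cKO than in KPC (median -0.86). Of 7 acinar markers, 6 had a higher mean in Twist cKO and 7 in Snail cKO than in KPC. Their median, relative to each marker's mean over all tumours, was -1.68, 0.86 and -1.73 in KPC replicates 1, 2 and 3. It was 1.34, -1.22 and 0.99 in Twist cKO, and -0.24, -1.67 and 3.15 in Snail cKO. Snail cKO replicate 3 thus stood highest, and Snail cKO replicate 2 lay close to the lowest KPC tumours. The summed proliferation level was 12.96, 13.22 and 13.91 in KPC, 12.80, 13.19 and 13.28 in Twist cKO, and 13.34, 13.62 and 13.65 in Snail cKO. The part of these markers in the differences of the drug enzymes was not tested.

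**Figure D5:**
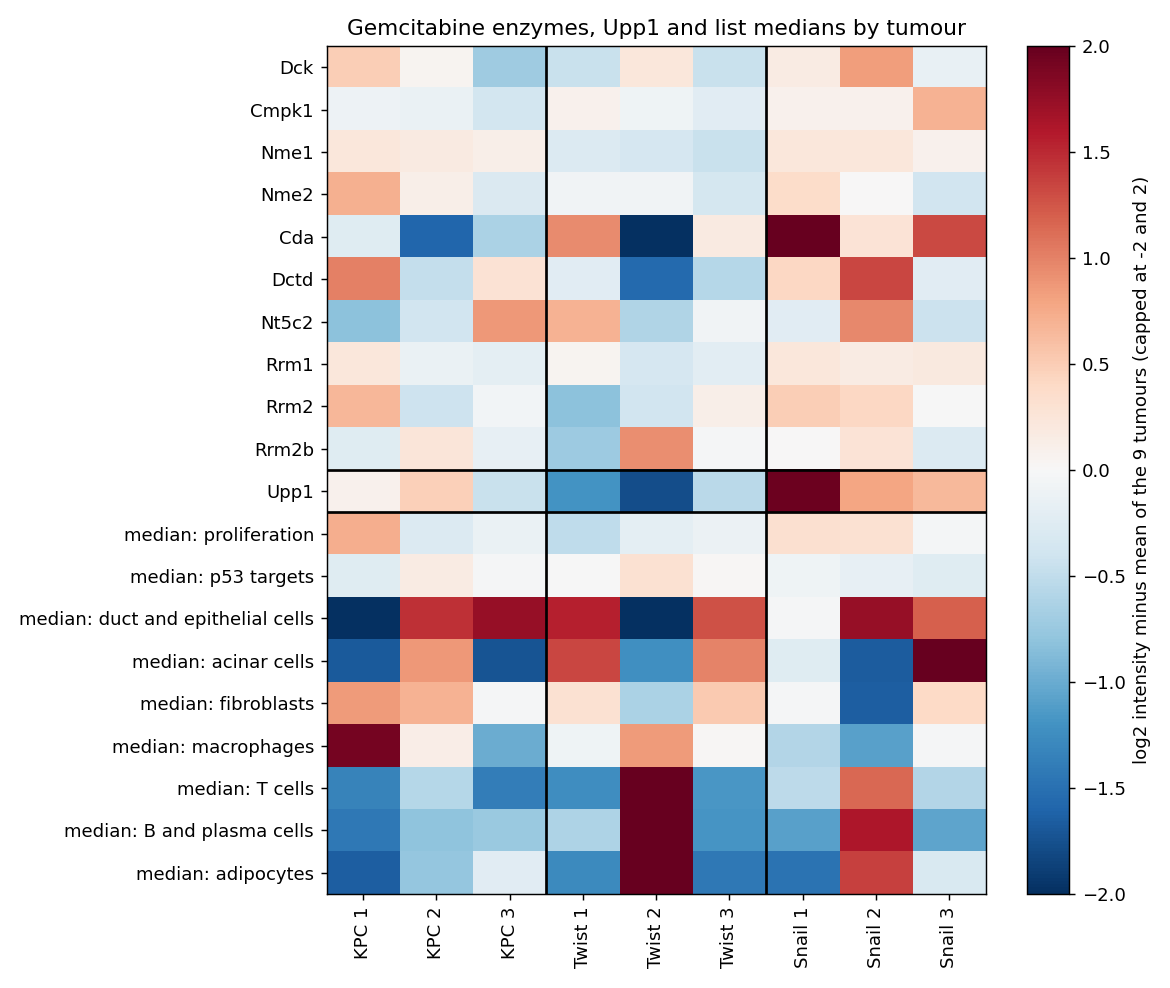
Map of the 10 genes, Upp1 and the medians of marker lists in the 9 tumours, coloured by log2 level minus the mean over the tumours. Upp1 is below its mean in all Twist cKO tumours and above it in all Snail cKO tumours, Cda and the duct markers share their lowest tumour, Twist cKO replicate 2, and KPC replicate 1 holds the highest proliferation median at 0.73.

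Across the 9 tumours the 10 genes did not vary as a single group. The highest Pearson r among their pairs was 0.755, between Cda and Rrm1, followed by 0.737 between Dctd and Rrm1, 0.721 between Nme1 and Dctd, and 0.693 between Dctd and Rrm2. The lowest was -0.657, between Cda and Rrm2b. Dck and Cda, the first activating and the first inactivating enzyme, had an r of -0.075. These values describe 9 tumours that share genotype groups and array sets. The genes most like each enzyme were taken as the 3 with the highest r. For Cda these were Mpzl1 (0.943), Egln3 (0.94) and Itga6 (0.907), for Nme1 Car13 (0.914), Timm8a1 (0.901) and Mtrex (0.901), and for Dctd Gar1 (0.949), Apex1 (0.932) and Ipo5 (0.927). For Rrm2 they were Wdr59 (0.965), the replication factor subunit Rfc5 (0.95) and the cell division gene Cdca2 (0.941), and for Dck Ccnh (0.921), Cpsf2 (0.916) and Pmvk (0.914). For Rrm2b they were Itsn2 (0.957), Cep135 (0.952) and Atg16l2 (0.946), and for Nt5c2 Anxa11 (0.977), Lpar2 (0.969) and Rnf10 (0.945). For Cmpk1 they were Trak1 (0.944), Vip (0.931) and Mep1b (0.908), for Nme2 Cdk14 (0.962), Alyref (0.922) and Plk4 (0.918), and for Rrm1 Gpr85 (0.939), Ak4 (0.92) and Rnf214 (0.9). The 3 genes most like Cmpk1 all peaked in Snail cKO replicate 3, where Cmpk1 was also highest. Vip read 8.87 there against 4.37 to 5.39 in the other tumours, and Mep1b 7.12 against 4.64 to 5.79. Over all 11537 genes the median of a gene's highest r was 0.956 and the median r of the gene ranked 3 was 0.934, so that likeness of this size was usual among 9 arrays.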

How the data were processed

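Total RNA of 9 pancreas tumours was labelled with biotin and hybridised to Illumina bead arrays, per the labels' protocols. GenomeStudio 5.0 is named in the submitters' processing notes, without its role. Per the file headers, the authors deposited the mean intensity of a probe's beads with its detection p-value. These intensities were linear and not normalized, judging from their values. A deposited table of processed intensity followed the bead intensity of each array in a straight line, with slopes of 0.795 to 1.16. Its scale per array is unexplained, it was not centred by gene, and its direction was that of the intensity. Its column medians were 14.6, 13.7 and 17.3 in KPC, 21.7, 22.4 and 11.2 in Twist cKO, and 21.7, 23.3 and 9.3 in Snail cKO. The sources used here name no genome build for the arrays.

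The neqc function of limma 3.58.1 (R 4.3.3, package data.table, version 1.17.8) corrected the background, normalized by quantiles and took log2 with an offset of 16. Kept were probes with 1 gene symbol and a detection p-value below 0.05 on 3 arrays or more. The annotation gave 1 symbol to 34885 probes, several to 18, and left 10378 unnamed. Each gene took its brightest kept probe, which left 11537 genes. A group-means limma model over all 9 arrays was tested on simulated data. It had 6 residual degrees of freedom and a prior worth another 2.57. P-values are two-sided, were adjusted by Benjamini and Hochberg over all genes, and were held to 0.05. The p-values rest on the spread between tumours of separately numbered mice, and the small number of arrays limits precision. The array sets were cut at the widest gap in the raw median of probes detected on no array. That median was 91.4 to 97.8 in set 1 and 103.6 to 109.5 in set 2. Over all probes the raw medians were 99.1 to 107 in set 1 and 115 to 125 in set 2. Undetected probes correlated at 0.387 and 0.526 within these sets and at 0.239 across them. Summed marker levels are log2 of summed intensities. The named genes were the 10 enzymes, Twist1 and Snai1, the 3 genes most like each enzyme, and up to 2 genes of smallest p per list and comparison, of which a part is printed. Cd79b, Cd3d, Adipoq, Krt19 and Krt7 are markers from the lists, singled out after their values were seen. The members and lists were chosen with earlier results of these data known. Alternatives covered background, normalization, the detection filter, the array set, left-out tumours, further probes and, chosen after seeing the data, the processed table without normalization and an intensity-trended prior.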

Additional observations from a re-analysis of the deposited data

Results flagged for a closer look

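Among 40 genes, the 10 enzymes and those that the rule for named genes took from the lists, 3 had every Twist cKO tumour below the KPC mean and every Snail cKO tumour above it, with KPC shared by both differences. Over all 11537 genes, 110 (0.953%) showed this pattern and 103 (0.893%) the opposite one, and among the 30 genes named for their likeness to an enzyme 4 showed it. The 3 of the 40 were Upp1, Aurkb and Tk1, all from the lists, so no enzyme of the 10 showed the pattern. The list genes were taken for their small p in these same comparisons. The 30 were taken for their likeness to the enzymes in these same tumours. The shares are therefore not comparable. For Upp1 the Twist cKO tumours lay between -1.82 and -0.58 relative to the KPC mean and the Snail cKO tumours between 0.61 and 1.92, and the difference between the cKO groups was 2.30 (SE 0.47, unadjusted limma p = 0.000909, exact permutation p = 0.1), or 1.19 in set 1 alone. For the mitotic kinase Aurkb that difference was 1.00 (SE 0.49, unadjusted limma p = 0.0738, exact permutation p = 0.1), or 0.26 in set 1 alone. For the thymidine kinase Tk1 it was 0.58 (SE 0.38, unadjusted limma p = 0.165, exact permutation p = 0.1), or 0.14 in set 1 alone, and its lowest Snail cKO tumour lay 0.01 above the KPC mean. On another kept probe, Tk1 read 6.20, 5.47 and 6.25 in KPC. It read 5.88, 6.05 and 6.15 in Twist cKO and 6.20, 6.86 and 5.89 in Snail cKO. On that probe the cKO groups overlapped and the pattern was absent. After adjustment over all genes the limma p was 0.986 for each of the 3 genes, so none of these differences between the cKO groups was called.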

How the results depend on the processing

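No paired analysis was possible because the labels give mouse numbers that run over all tumours, and replicate numbers within a group were given in accession order. Of 756 alternative values for single genes, 697 kept their direction, 59 reversed and 0 passed the adjusted limma threshold, the smallest adjusted p being 0.479. The count of called genes was 0 with limma under every alternative except those that leave out 1 tumour, where it ranged from 0 to 3 in Twist cKO against KPC, 0 to 1 in Snail cKO against Twist cKO and 0 to 0 in Snail cKO against KPC, the calls coming without Twist cKO replicate 1. At an unadjusted p under 0.05 the main counts were 409 genes for Twist cKO and 311 for Snail cKO against KPC, and 436 between the cKO groups. In Twist cKO against KPC the count was 166 with the array set as a block, 152 in set 1 alone and 810 with no detection filter. All reversed differences follow, and their cause was not tested. In set 1 alone, Twist cKO against KPC had Cmpk1 at -0.034 and Rrm2 at 0.054, Snail cKO against KPC had Dck at -0.095, Dctd at -0.51, Nme1 at -0.079, Nt5c2 at -0.32, Rrm2 at -0.072 and Rrm2b at -0.21, and Snail cKO against Twist cKO had Nme2 at -0.045, Nt5c2 at -0.36 and Rrm2 at -0.13. With the set as a block, Snail cKO against KPC had Dctd at -0.027, Nme1 at -0.080, Nt5c2 at -0.092 and Rrm2b at -0.12, and Twist cKO against KPC had Nt5c2 at -0.18 and Rrm2b at -0.069. In the processed table without normalization, Twist cKO against KPC had Dck at 0.043, Nme2 at 0.061 and Rrm1 at 0.15, and Snail cKO against KPC had Nme2 at 0.21. Further probes gave Nme2 at 0.13 and 0.061 in Snail cKO against KPC, Nme2 at 0.034, Nt5c2 at -0.069 and Rrm1 at 0.42 in Twist cKO against KPC, and Rrm1 at -0.37 in Snail cKO against Twist cKO. Without KPC replicate 1 and Twist cKO replicate 2, Snail cKO against KPC had Nme2 at 0.080, Nt5c2 at -0.14 and Rrm2b at -0.036, Snail cKO against Twist cKO had Nt5c2 at -0.21 and Rrm2b at 0.39, and Twist cKO against KPC had Cda, with its sign kept, at 1.67, Rrm1 at 0.087 and Rrm2b at -0.42. With 1 tumour left out at a time, Twist cKO against KPC ranged for Dck from -0.49 to 0.10, Cda from -0.33 to 1.38, Nt5c2 from -0.23 to 0.61, Rrm1 from -0.23 to 0.005 and Rrm2b from -0.32 to 0.51. Snail cKO against KPC ranged for Nme1 from -0.018 to 0.052, Nme2 from -0.42 to 0.080, Dctd from -0.18 to 0.60, Nt5c2 from -0.21 to 0.70, Rrm2 from -0.008 to 0.53 and Rrm2b from -0.072 to 0.21. Snail cKO against Twist cKO ranged for Nme2 from -0.036 to 0.34, Nt5c2 from -0.34 to 0.44 and Rrm2b from -0.45 to 0.39. Signal over background limits Dck and Cda, each undetected on 1 array.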
